A study of Caenorhabditis elegans with 6 samples.

Results

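The genes described here are the lysozymes and saposin-like proteins of the nematode *Caenorhabditis elegans*, taken by gene class name from the array's platform annotation (*lys*, *ilys* and *spp*, each followed by a number). They come to 34 of the 17118 genes measured, with 10 *lys*, 6 *ilys* and 18 *spp* genes, each read by its probe set of highest mean value. Each of the 34 symbols was still the gene's name in the RefSeq gene table of assembly WBcel235, which names 46 protein-coding genes of these classes. Another 7 of those, *spp-2*, *spp-3*, *spp-5*, *spp-9*, *spp-21*, *spp-22* and *spp-30*, had only probe sets that list several genes and were left out, and 5 (*spp-17*, *spp-20*, *spp-25*, *spp-26* and *spp-29*) were not analysed here.

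Lysozymes cut the peptidoglycan wall of bacteria. The *lys* genes encode lysozymes related to those of amoebae, and the *ilys* genes encode the invertebrate type. Saposin-like proteins are small, disulphide-bonded helical proteins that bind or permeabilise lipid membranes, and several of the worm's are known as caenopores, which kill bacteria. *C. elegans* lives on bacteria, and many of these genes are known for expression in the intestine, where they serve digestion and defence.

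Total RNA of the wild-type strain N2 was hybridised to 6 one-channel Affymetrix arrays, with 3 arrays of larvae in the first stage (L1) after feeding and 3 of mixed embryos, each from 8 µg of RNA. The larvae hatched over 24 h in M9 buffer without bacteria at 20 °C and then fed for 3 h on HB101 *Escherichia coli* at 10 mg/mL, with 10 worms per µL, while the embryos were released by bleach from gravid adults that had grown on HB101 plates. The embryo arrays were re-analysed from an earlier series, so stage, hatching without food, feeding and array set cannot be told apart. The source field of the L1 samples speaks of embryos, against their titles and stage labels, and the groups here follow the titles. Titles of the embryo samples carry XX beside WT, and those of the L1 samples carry WT without it. The embryonic genes *pes-10* and *nos-2* had L1 means of 4.12 and 4.53, against 8.80 and 9.68 in embryos. Of the 6 germline and early embryo markers that include them, 5 were lower in L1 by the test below and *glh-1* was not (8.06 against 8.10). These values alone do not settle the source field.

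Values are RMA expression values on the log2 scale, in which 1 unit is a doubling, and differences are fed L1 minus mixed embryo with limma's SE (n = 3 arrays per stage throughout). A gene passed at a Benjamini-Hochberg adjusted p under 0.05 over all genes, and "rose" and "fell" are used for genes that passed. RMA reads low RNA as a floor, taken here as 5.43, the top reading among 32 probe sets of bacterial or yeast genes whose RNA is no added hybridisation control. Where 1 stage had a mean at or under this floor, the fold is given as "at least", measured from the floor. Medians of whole arrays lay between 6.08 and 6.10 in L1 and, lower throughout, between 6.004 and 6.04 in embryos. The median SD of the 34 genes between arrays of a stage was 0.096 in L1 and 0.097 in embryos. Nothing in the labels states whether the replicates came from separate cultures, and the 3 embryo titles share 1 code and differ by a letter, so a p-value here reflects only spread among these arrays, possibly technical, and their number limits the precision.

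Many lysozyme and saposin-like genes were higher in fed L1 than in embryos. Of the 34 genes, 24 rose, 4 fell and 6 did not pass, where 33.2% of all genes rose and 31.2% fell. Of the 24 rises, 7 were of genes at or under the floor in both stages, and the other 17 were of 8 of the 16 lysozyme genes and 9 of the 18 saposin-like genes. Over all genes, 4648 of the 5685 that rose had a mean over the floor in at least 1 stage. A rise of at least 1 log2 unit was found for 17 and a fall of at least that size for 2, against 17.0% and 17.5% of all genes. The ranges of both stages were separate for 29 genes, with L1 above embryos in 25 and below in 4. Over all genes the L1 arrays lay wholly above in 37.8% and wholly below in 32.8%.

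By class, among *lys* genes 9 of 10 rose and 0 fell, with a median difference of 2.85, while *ilys* genes had 3 of 6 rising, 0 falling and a median of 0.51, and *spp* genes had 12 of 18 rising, 4 falling and a median of 0.82. The median of all genes was 0.05. With arrays centred on 62 ribosomal protein genes, which lowers every difference by 0.33, the rising and falling counts were 7 and 1 for *lys*, 3 and 3 for *ilys* and 10 and 5 for *spp*. Over all genes that centring gave 3978 rising and 9315 falling, against 5685 and 5339 without it. A total of 12 of the 34 genes lay at or under the floor in both stages, 5 in embryos only and 2 in L1 only, and 15 were above it in both. Of all 17118 genes, 5797 lay at or under it in both, 1443 in embryos only and 1073 in L1 only, and 8805 were above it in both.

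**Figure D1:**
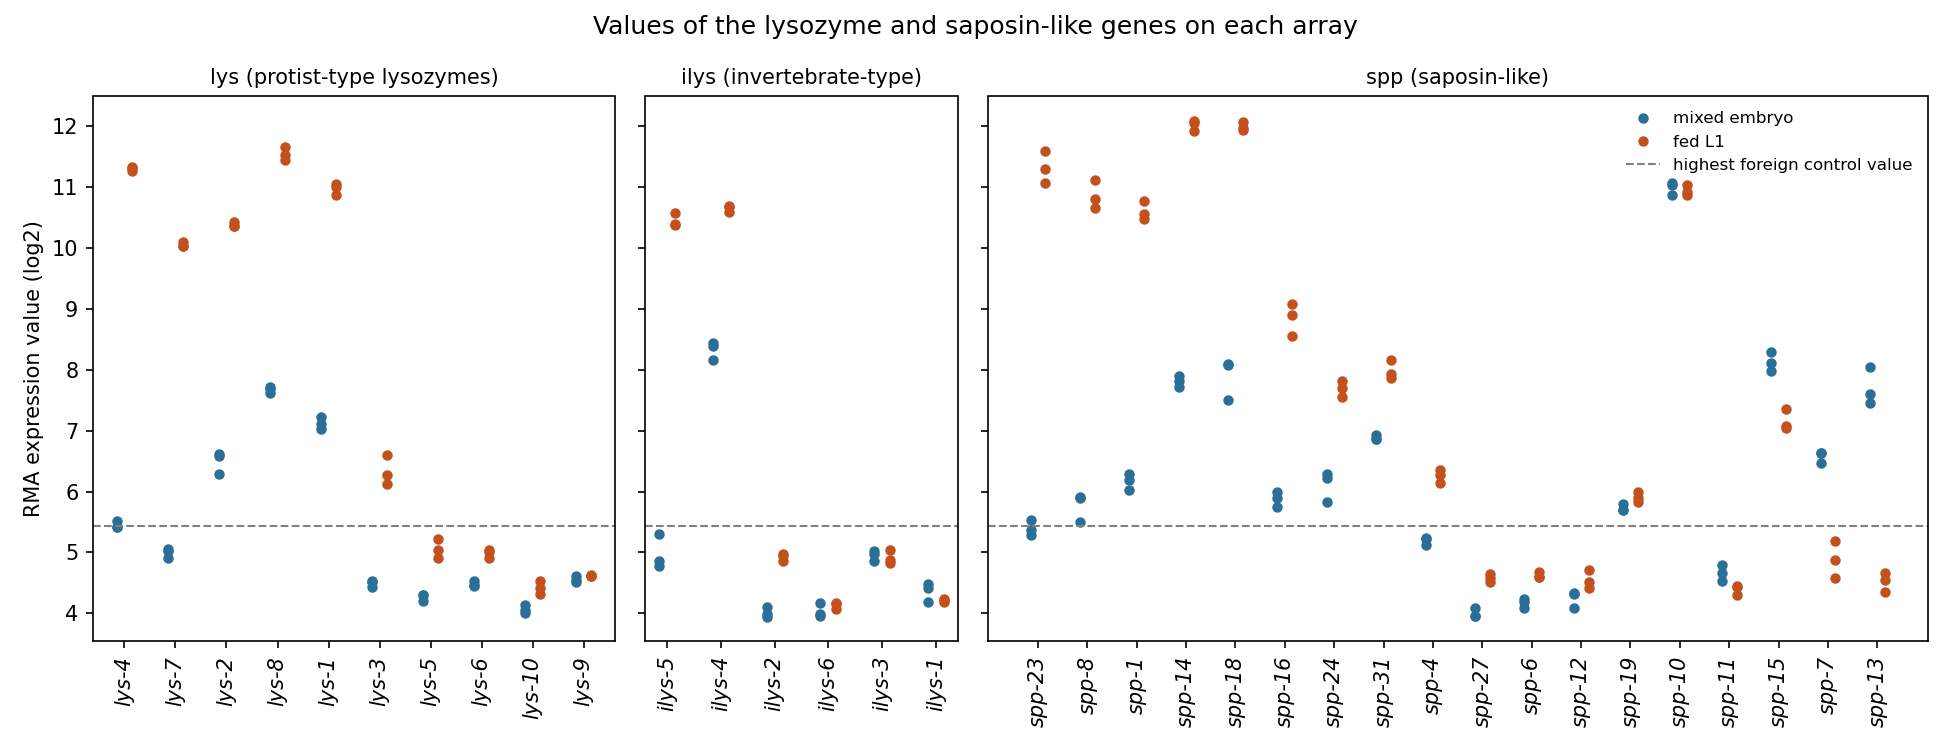
RMA expression value (log2) of each of the 34 genes on every array, with 3 embryo arrays (blue) and 3 fed L1 arrays (orange) per gene, ordered within each class by the difference. The dashed line is the floor at 5.43, and the 12 genes under it in both stages differ by at most 0.92.

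Lysozymes of the *lys* class held some of the largest rises. *lys-4* read 11.26, 11.32 and 11.32 on the L1 arrays and 5.41, 5.41 and 5.51 on the embryo arrays, a rise of 5.85 (SE 0.08, limma adjusted p = 5.46e-11), whose size is limited by the floor since 2 of the 3 embryo arrays lay under it. *lys-7*, known for its part in defence against pathogens, read 10.03, 10.03 and 10.10 in L1 and 5.02, 5.05 and 4.91 in embryos, a rise of 5.06 (SE 0.09, limma adjusted p = 6.23e-11) and at least 24.7-fold. Both genes were bright on every L1 array and lay at, under or within 0.082 of the floor on every embryo array.

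Another 3 *lys* genes rose by nearly the same amount from embryo levels that were clearly measurable. *lys-8* read 11.44, 11.53 and 11.66 in L1 and 7.68, 7.71 and 7.62 in embryos, a rise of 3.87 (SE 0.09, limma adjusted p = 2.01e-10). *lys-1*, known to be induced by the pathogen *Serratia marcescens*, read 11.001, 11.04 and 10.87 against 7.02, 7.22 and 7.11, a rise of 3.85 (SE 0.09, limma adjusted p = 2.41e-10). The values of *lys-2* were 10.43, 10.37 and 10.36 against 6.61, 6.29 and 6.59, a rise of 3.89 (SE 0.10, limma adjusted p = 3.86e-10). These are 14.6-fold, 14.5-fold and 14.8-fold differences, whose 95% intervals on the log2 scale (3.67 to 4.08, 3.64 to 4.06 and 3.65 to 4.12) overlap.

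The other *lys* genes were dim. *lys-3* read 6.13, 6.60 and 6.27 in L1 and 4.43, 4.53 and 4.52 in embryos, a rise of 1.84 (SE 0.12, limma adjusted p = 2.51e-07) and at least 1.87-fold. *lys-5* read 4.91, 5.04 and 5.22 against 4.30, 4.30 and 4.20 (a rise of 0.79, SE 0.10, limma adjusted p = 4.43e-05). *lys-6* read 5.04, 5.01 and 4.91 against 4.54, 4.46 and 4.45 (a rise of 0.51, SE 0.09, limma adjusted p = 0.000364). Of these, *lys-3* alone rose above the floor, while *lys-5* and *lys-6* stayed under it on every array of both stages. A further probe set that lists *lys-5* and *lys-6* together read 5.63, 5.14 and 5.40 in L1 and 4.12, 4.14 and 4.19 in embryos, a rise of 1.24 that cannot be assigned to either gene. *lys-10* also stayed under it and rose by 0.36 (limma adjusted p = 0.00569), and *lys-9*, at 4.61 in L1 and 4.56 in embryos, differed by 0.05 and did not pass (95% interval -0.13 to 0.24).

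Small rises under the floor can be set beside the foreign controls, whose own differences ran from -0.10 to 0.26 with a median of 0.06. Of the 12 genes under the floor in both stages, the 7 that rose differed by 0.30 to 0.92 and the other 5 by -0.27 to 0.10. At the SEs of these genes, one passes only with a difference near or beyond the top of the control range. A place above that range was therefore largely set by the call and does not back the 7 rises. Centred on ribosomal protein genes, *lys-6* and *lys-10* did not pass (differences of 0.18 and 0.03), *lys-9* fell by 0.28, and *lys-5* still rose, by 0.46.

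Invertebrate-type lysozymes were split between a pair of strong rises and a dim remainder. *ilys-5* read 10.39, 10.58 and 10.38 in L1 and 4.86, 4.78 and 5.30 in embryos, a rise of 5.47 (SE 0.14, limma adjusted p = 2.64e-10) and at least 32.4-fold. *ilys-4* read 10.59, 10.70 and 10.67 against 8.17, 8.39 and 8.45, a rise of 2.32 (SE 0.10, limma adjusted p = 9.01e-09) and a 4.98-fold difference. Of this pair *ilys-4* was well above the floor in embryos already, and *ilys-5* was under it on every embryo array. The third rise was that of *ilys-2*, at 4.87, 4.95 and 4.97 against 3.95, 3.99 and 4.10 (a rise of 0.92, SE 0.09, limma adjusted p = 4.48e-06), all under the floor.

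*ilys-3*, known as a lysozyme of the pharynx and intestine that breaks down ingested bacteria, did not pass. It lay under the floor on all arrays, at 4.91 in L1 and 4.96 in embryos, a difference of -0.04 (95% interval -0.25 to 0.17). *ilys-1* (-0.15) and *ilys-6* (0.10) were under it too and did not pass, except that *ilys-1* passed at -0.24 without embryo replicate A. Centred on ribosomal protein genes, *ilys-1*, *ilys-3* and *ilys-6* passed as lower in L1, by -0.48, -0.37 and -0.23, and *ilys-6* then had the opposite sign.

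Saposin-like genes included both strong rises and the falls of the 34 genes. *spp-23* read 11.30, 11.59 and 11.07 in L1 and 5.29, 5.53 and 5.37 in embryos, a rise of 5.92 (SE 0.13, limma adjusted p = 1.51e-10) and at least 59.2-fold. *spp-8* read 10.81, 11.11 and 10.65 against 5.50, 5.91 and 5.90, a rise of 5.09 (SE 0.15, limma adjusted p = 5.76e-10) and a 34.0-fold difference. *spp-1*, a caenopore gene with known antibacterial activity, read 10.55, 10.77 and 10.48 against 6.30, 6.19 and 6.02, a rise of 4.43 (SE 0.11, limma adjusted p = 2.50e-10) and a 21.6-fold difference. In each of these genes the lowest L1 array lay more than 4 units over the highest embryo array.

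The next 3 rises started from embryo values above the floor. *spp-14* read 12.08, 12.05 and 11.92 in L1 and 7.90, 7.72 and 7.82 in embryos, a rise of 4.20 (SE 0.09, limma adjusted p = 1.41e-10). *spp-18* read 11.97, 11.94 and 12.06 against 7.51, 8.09 and 8.08, a rise of 4.10 (SE 0.15, limma adjusted p = 2.79e-09). *spp-16* read 8.90, 9.08 and 8.55 against 5.99, 5.75 and 5.89, a rise of 2.97 (SE 0.14, limma adjusted p = 1.44e-08). The folds were 18.4, 17.1 and 7.81, and embryo array A was the low one for *spp-18*, which had the widest embryo SD of the 34 genes (0.34).

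Moderate rises followed. *spp-24* read 7.69, 7.82 and 7.55 in L1 and 5.82, 6.29 and 6.21 in embryos (a rise of 1.58, SE 0.13, limma adjusted p = 1.61e-06). *spp-31* read 7.86, 8.16 and 7.92 against 6.86, 6.86 and 6.92 (a rise of 1.10, SE 0.10, limma adjusted p = 3.11e-06). For *spp-4* the L1 mean was 6.25 and the embryo mean 5.19, under the floor, with a rise of 1.06 (SE 0.09), at least 1.77-fold. No array of one stage reached the range of the other in these genes. *spp-27*, *spp-6* and *spp-12* rose by 0.57, 0.45 and 0.30 under the floor in both stages. *spp-12*, known for expression in pharyngeal neurons, was not called after median centring (0.24), and after ribosomal protein centring *spp-6* (0.12) and *spp-12* (-0.03) were not called. *spp-12* was also not called without L1 replicate 2 (0.22), without L1 replicate 3 (0.32) or without embryo replicate A (0.23).

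Saposin-like genes were also the class with falls. *spp-13* read 4.34, 4.65 and 4.55 in L1 and 7.46, 8.04 and 7.60 in embryos, a difference of -3.18 (SE 0.15, limma adjusted p = 1.81e-08), with embryos at least 4.81-fold higher. *spp-7* read 4.87, 4.58 and 5.18 against 6.47, 6.63 and 6.63, a difference of -1.70 (SE 0.14, limma adjusted p = 1.57e-06), with embryos at least 2.21-fold higher. *spp-15* read 7.08, 7.36 and 7.05 against 7.97, 8.29 and 8.11, a difference of -0.96 (SE 0.12, limma adjusted p = 3.13e-05). The first 2 were under the floor on every L1 array, whereas *spp-15* stayed above it in both stages. *spp-11* read 4.43, 4.46 and 4.30 against 4.66, 4.80 and 4.53, a difference of -0.27 (SE 0.10, limma adjusted p = 0.0349) under the floor, and it was not called without L1 replicate 1 (-0.29), L1 replicate 3 (-0.22), embryo replicate A (-0.27) or embryo replicate B (-0.20).

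A pair of saposin-like genes did not pass. *spp-10* was bright in both stages, at 10.92, 11.04 and 10.87 in L1 and 10.87, 11.04 and 11.06 in embryos, and the difference of -0.05 had a 95% interval of -0.26 to 0.16. Its arrays overlapped throughout. *spp-19*, at 5.90 in L1 and 5.73 in embryos, differed by 0.17 (95% interval -0.03 to 0.37). With ribosomal protein centring *spp-10* passed at -0.38, while *spp-19* took the opposite sign (-0.16) and did not pass.

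**Figure D2:**
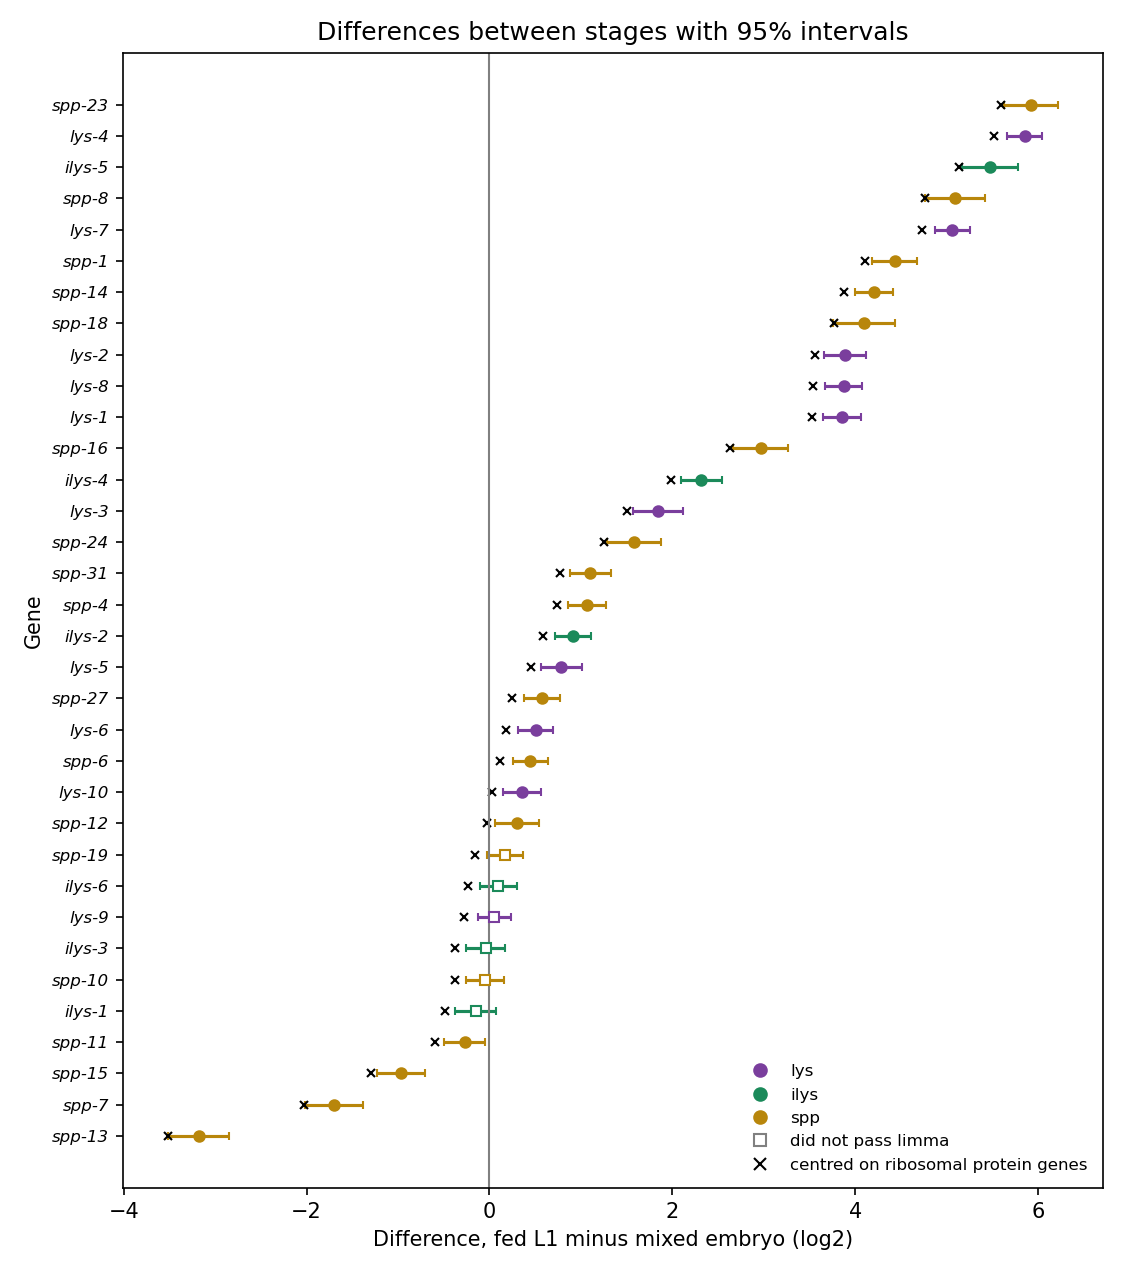
Difference between the stages (fed L1 minus mixed embryo, log2) for the 34 genes, with limma's 95% intervals, filled circles for genes that passed and open squares for those that did not. Crosses give the value with arrays centred on ribosomal protein genes, which moves *lys-9*, *ilys-6*, *spp-12* and *spp-19* across 0 and leaves the sign of the differences over 1 unit as it was.

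Several of these genes sit side by side on a chromosome in the RefSeq gene order, and neighbours did not all differ by the same amount. On chromosome V *lys-1*, *lys-2* and *lys-3* follow each other with no coding gene between them, and their differences were 3.85, 3.89 and 1.84. On chromosome IV *lys-4*, *lys-5* and *lys-6* are also consecutive, with differences of 5.85, 0.79 and 0.51. The first gene of that run was bright in L1, and the next 2 were under the floor in both stages. In a second run on chromosome IV, of *ilys-3*, *ilys-2* and *ilys-1*, the middle gene rose and the outer ones did not pass (-0.04, 0.92 and -0.15), with all 3 under the floor.

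Adjacent genes on chromosome X, *spp-6* and *spp-4*, rose by 0.45 and 1.06. *spp-8* and *spp-10* lie on chromosome IV with 1 coding gene between them, and differed by 5.09 and -0.05 in the probe sets used. Another probe set of *spp-10* rose by 4.36, so this contrast depends on the probe set. On chromosome V *spp-27* (0.57) and *spp-19* (0.17) have 2 coding genes between them. The probe sets of 11 of the 34 genes are of a design that allows matches to related sequences, 5 of *lys*, 2 of *ilys* and 4 of *spp*, among them those of *lys-2*, *lys-3*, *lys-4*, *lys-6*, *lys-7*, *ilys-5*, *ilys-6*, *spp-1*, *spp-7*, *spp-8* and *spp-10*. How much signal of a related gene each of these took up was not tested.

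Of the 34 genes, 4 had more than 1 probe set, and these repeats differed for *spp-1* and *spp-10*. All 3 probe sets of *ilys-5* rose, by 5.47, 5.54 and 5.59, and both of *spp-8* rose, by 5.09 and 5.10. The embryo means of all 3 *ilys-5* probe sets and of the second of *spp-8* (4.84) were under the floor, which limits the sizes of those rises. For *spp-1* the other probe set read 4.75, 4.77 and 4.81 in L1 and 4.55, 4.71 and 4.48 in embryos, under the floor, with a difference of 0.19 that did not pass. The rise of *spp-1* given above therefore rests on 1 of its 2 probe sets. Of the other 2 probe sets of *spp-10*, one differed by 0.14 and did not pass, but the last read 10.90, 11.08 and 11.16 in L1 and 6.81, 6.56 and 6.68 in embryos, a rise of 4.36 (SE 0.11, limma adjusted p = 4.45e-10 over all probe sets). As the mean of its probe sets *spp-10* rose by 1.48, so the result for this gene depends on the probe set.

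**Figure D3:**
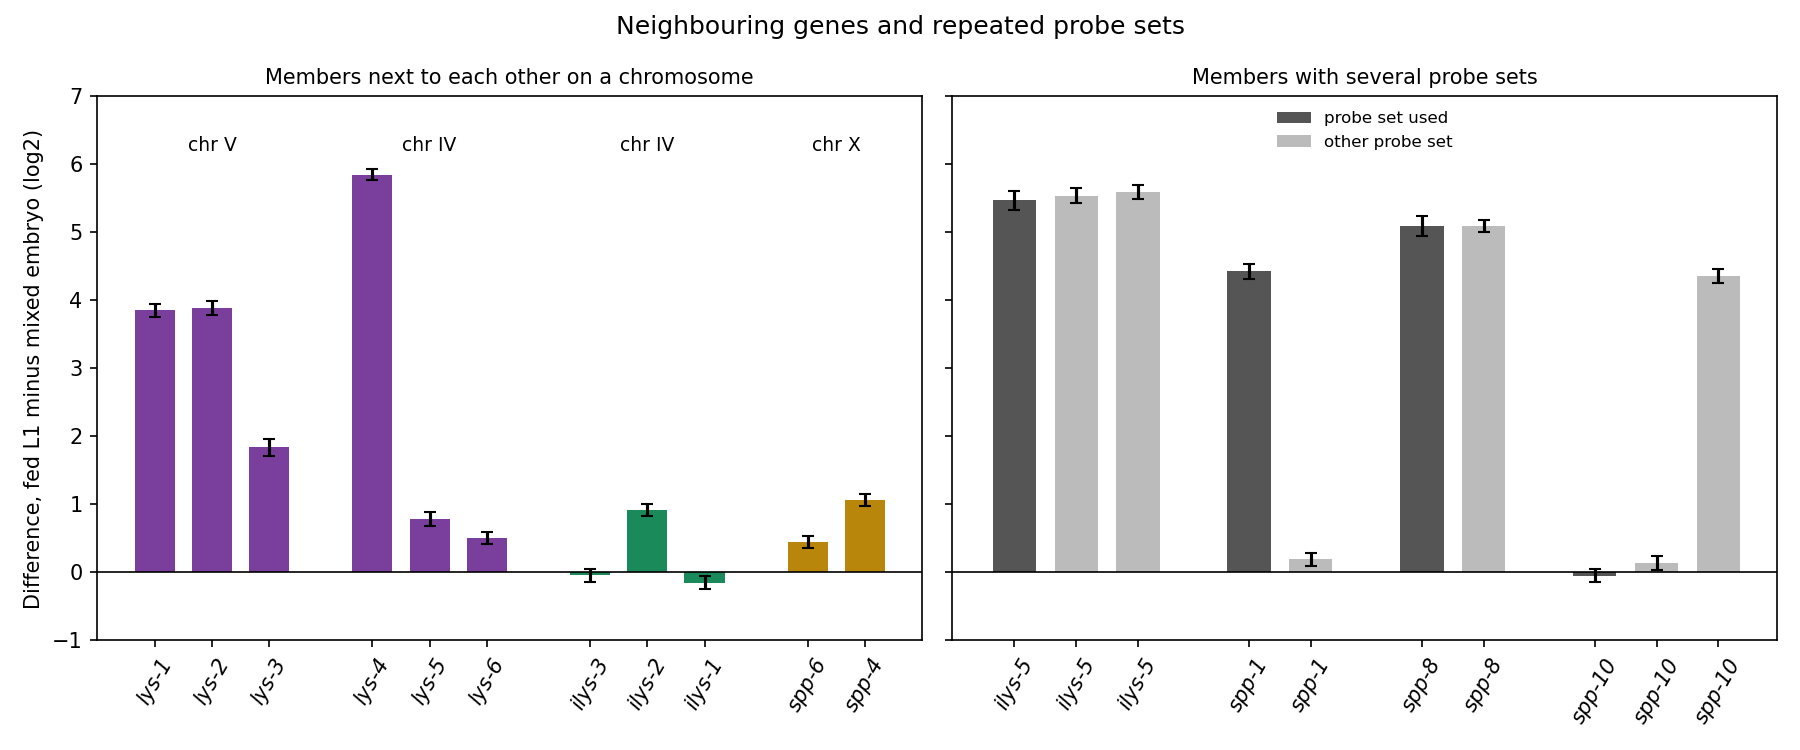
Left, differences (fed L1 minus mixed embryo, log2, bars with limma's SE) of genes next to each other on a chromosome, where *lys-4* at 5.85 stands beside *lys-5* at 0.79 and *lys-6* at 0.51. Right, every probe set of the 4 genes with more than 1, with SE from the fit over all probe sets, where the repeats of *ilys-5* and *spp-8* are close and those of *spp-1* and *spp-10* are up to 4.24 and 4.41 apart.

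Within a stage the arrays were close, with SDs of the 34 genes from 0.011 to 0.30 in L1 and from 0.035 to 0.34 in embryos, against medians over all genes of 0.11 and 0.12. L1 replicate 2 was the highest L1 array for 21 of the 34 genes, and embryo replicate A was the lowest embryo array for 19. Leaving out any 1 array gave 9 rising *lys* genes, 3 rising *ilys* genes and 11 to 12 rising *spp* genes. The strong rises moved little, with *lys-4* at 5.83 to 5.89, *ilys-5* at 5.37 to 5.63 and *spp-23* at 5.79 to 6.05.

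Marker genes of the intestine were higher in L1 too. All 8 of those measured rose, by 1.03 to 3.88, and the mean level of the list was 10.72 to 10.76 over the L1 arrays and 8.00 to 8.19 over the embryo arrays, with no marker at the floor in either stage. In bulk samples, fewer cells of a type and less RNA per cell cannot be told apart. Pharyngeal, body wall muscle and neuronal markers had 4 of 6, 4 of 5 and 4 of 6 rising, and 2, 1 and 1 falling. Of the epidermal and the germline and early embryo markers 4 of 6 and 5 of 6 fell. Of these 2 lists *elt-3* of the epidermis alone rose (0.35). No epidermal marker rose with either centring, without L1 replicate 1 or 3, or without embryo replicate A. The counts of all marker lists stand against the 33.2% of all genes that rose and the 31.2% that fell. In the epidermal list *dpy-7* and *rol-6*, and in the germline and early embryo list *nos-2* and *pes-10*, had L1 means alone at the floor. The epidermal marker *bli-1* was at the floor in both stages and the pharyngeal marker *phat-3* in embryos. List means over the L1 and embryo arrays were 8.75 to 8.88 and 7.38 to 7.56 for pharynx, 10.30 to 10.44 and 9.04 to 9.25 for muscle, and 10.62 to 10.67 and 9.24 to 9.48 for neurons. They were 6.64 to 6.79 and 8.04 to 8.20 for epidermis, and 5.84 to 5.90 and 8.85 to 9.28 for germline and early embryo. Leaving out probe sets that allow related matches drops the markers read only by them. In that setting 2 markers each of intestine, pharynx, body wall muscle and neurons rose, and 2 of germline and early embryo fell. The part of these cell types in the differences of the lysozyme and saposin-like genes was not tested.

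Regulators of intestinal and immune genes changed in both directions, and their counts and those of the next lists stand against the 33.2% of all genes that rose and the 31.2% that fell. Of 14 intestinal regulators 9 rose and 3 fell (5 and 3 with ribosomal protein centring), with a median of 0.39. The zinc finger gene *pqm-1* rose by 3.65 and the bZIP gene *zip-2*, which acts in defence against *Pseudomonas*, by 1.09, while the GATA factor gene *end-1*, which specifies endoderm in the embryo, and the pharyngeal organ identity gene *pha-4* fell, with differences of -1.92 and -0.95. *elt-2*, the GATA factor gene that keeps up intestinal gene expression, is also one of the intestine markers and is added outside the naming rule. It rose by 1.03, and by 0.65 as the mean of its probe sets. In the list of 30 immune signalling genes 19 rose and 6 fell (16 and 9 with that centring), with a median of 0.69. The Smad genes *sma-4* and *sma-2*, which act in the DBL-1 pathway of body size and immunity, both rose by 2.97. The embryo mean of *sma-2* was under the floor (5.23), so its rise was at least 6.81-fold, while that of *sma-4* was above it (6.69). The kinase gene *pdk-1*, of insulin signalling, fell (-1.55), though *pdk-1* rose by 0.22 when probe sets that allow matches to related sequences were left out.

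Other antimicrobial peptide families were mostly dim. Among 25 genes of the *abf*, *cnc*, *thn* and *fipr* classes 12 rose and 2 fell, 11 did not pass and 15 were at the floor in both stages (median 0.16), and centred on ribosomal proteins 4 were higher and 10 lower. Without genes at the floor on all arrays 7 rose and 1 fell, and without probe sets that allow related matches 7 rose and 0 fell. The latter setting drops genes read only by such probe sets, among them the 2 that fell. *fipr-2*, of the class related to fungus-induced proteins, rose by 4.62 and *abf-5*, of the class of antibacterial factors, by 2.09, while the caenacin gene *cnc-3* and *fipr-17* fell (-0.66 and -0.31), the latter under the floor in both stages (4.29 in L1 and 4.60 in embryos). Genes of gut granules and endolysosomal traffic, compartments known to hold lysosomal enzymes, had 4 of 19 rising and 11 falling, with a median of -0.57. The falling count was 7 without probe sets that allow related matches, a setting that also drops genes read only by such probe sets. The rising count was 2 without L1 replicate 3, without embryo replicate B or with ribosomal protein centring. *glo-4* and *glo-3*, needed for gut granules, rose by 1.19 and 1.13, and by 0.88 and 0.71 as the mean of their probe sets. *rab-10*, of endocytic recycling, and *vps-39*, of the HOPS tethering complex, fell (-1.70 and -1.60).

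**Figure D4:**
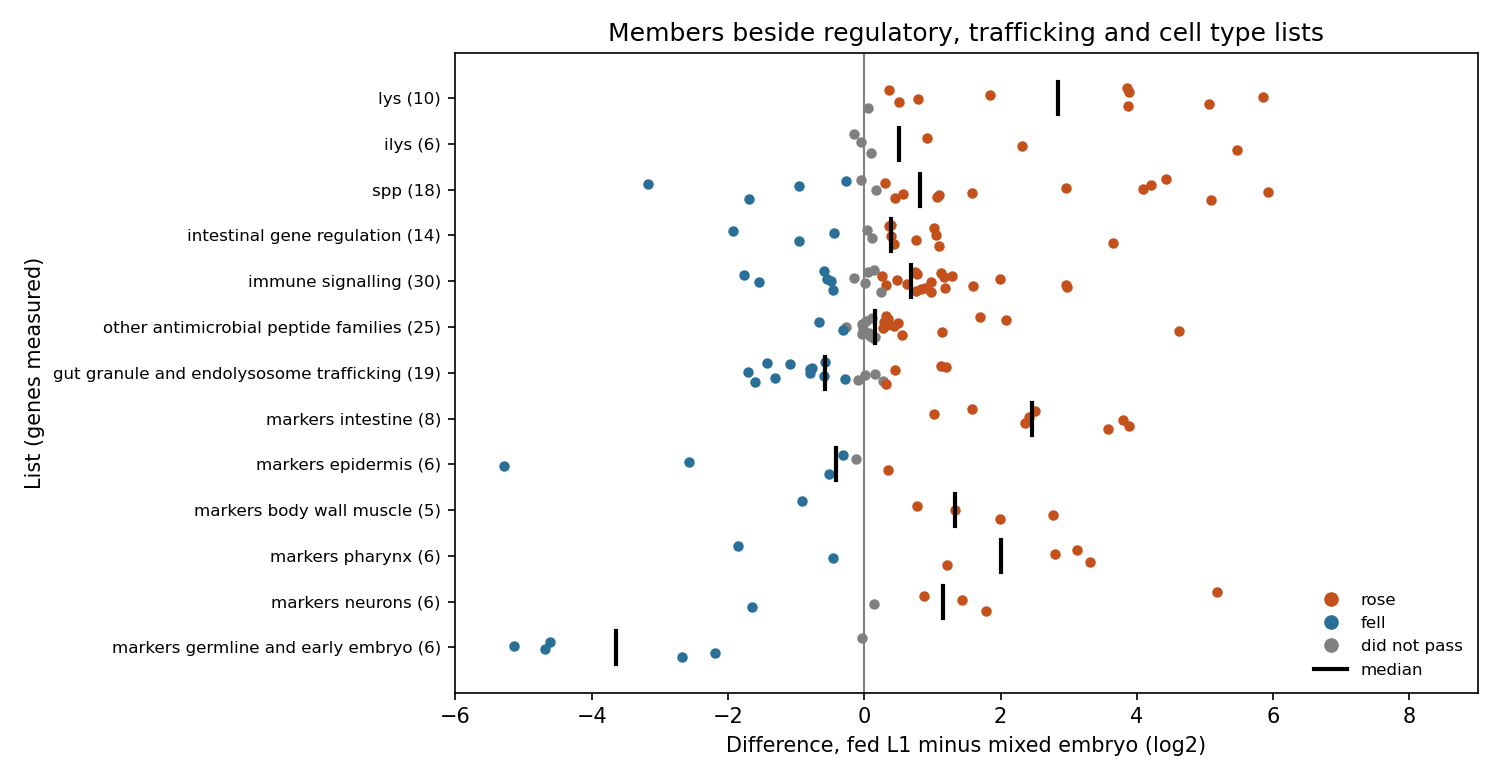
Difference of every measured gene (fed L1 minus mixed embryo, log2) in the *lys*, *ilys* and *spp* classes, in 4 lists of regulators and related genes and in 6 lists of cell type markers, with black bars at the medians. Intestine markers and most *lys* genes lie to the right of 0, and germline and early embryo markers lie at or below it. Ribosomal protein centring would move every point by -0.33, which takes *lys-9*, *ilys-6*, *spp-12* and *spp-19* of the members past 0.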

How the data were processed

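The authors deposited log2 expression values, 1 per probe set and array, made with RMA, per the submitters' processing notes. RMA corrects background, gives all arrays a like distribution and summarises probes. It therefore hides a change in total RNA per worm and shrinks differences at low levels. Not given in the sources used here are the RMA version and whether both stages were normalized in 1 run.

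From 22625 probe sets, 77 controls were left out. Of the other 22548, 20766 name 1 gene, 887 several and 895 none, and 17118 genes were fitted with limma 3.58.1 in R 4.3.3 (lmFit and eBayes, 2-sided, Benjamini-Hochberg adjusted p under 0.05 over all genes). Intervals are limma's 95% intervals. No pair of arrays was identical. The steps were tested on simulated data. The genes, lists and floor were chosen with earlier results of these data known. All members are named. Array values are given for the members that passed, by size, up to 8 of *lys*, 4 of *ilys* and 10 of *spp*, and for each that fell, and lists give the 2 largest changes each way, except 1 gene that is not reported here. Alternatives were another quantile normalization, 2 centrings, 2 filters on dim genes, eBayes with trend and robust settings, 2 other choices of probe set and leaving out each array. Sequences of proteins or promoters were not used here.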

Additional observations from a re-analysis of the deposited data

Results flagged for a closer look

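A total of 6 probe sets that the comparison does not use had a mean over the floor and passed limma over all probe sets. The one that lists *spp-2* and *spp-3* together rose by 3.76 (SE 0.13), from 7.55, 7.92 and 7.84 in embryos to 11.46, 11.74 and 11.38 in L1, and the one that lists *spp-5* and *T08A9.13* rose by 1.79 (SE 0.11), from 10.99, 11.07 and 11.22 to 12.81, 13.07 and 12.76. Neither can be assigned to 1 gene. Further probe sets of *ilys-5* rose by 5.54 and 5.59, one of *spp-8* by 5.10 and one of *spp-10* by 4.36, the last against -0.05 in the probe set used for that gene.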

How the results depend on the processing

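No paired analysis was possible because the replicates of the stages carry numbers in one and letters in the other. Of the 34 genes, 34 kept their call with trend and robust settings, 33 after another quantile normalization or median centring (*spp-12* was not called, at 0.24 under each), 33 with the mean of probe sets and 25 with ribosomal protein centring, as did 25 of the 26 measured without probe sets that allow related matches and all 22 and 23 left by the filters on dim genes. Ribosomal protein centring gave 9315 falling genes overall against 5339, medians of 2.52 for *lys*, 0.18 for *ilys* and 0.49 for *spp*, 1 falling *lys* gene and 3 falling *ilys* genes, and turned *lys-9* to -0.28, *ilys-6* to -0.23 and *spp-12* to -0.028. Leaving out probe sets that allow matches to related sequences drops the genes read only by them. Over the fewer genes measured it gave 4 rising *lys* genes and medians of 0.79 for *lys*, 0.44 for *ilys* and 0.57 for *spp*. There *spp-1* was at 0.19 with no call and *pdk-1* at 0.22. The mean of probe sets gave an *spp* median of 1.08 and *spp-10* at 1.48. With the lowest genes left out (25th percentile of mean level) the medians were 3.88, 2.32 and 1.34 for *lys*, *ilys* and *spp*, and without genes at the floor on all arrays 3.88, 3.89 and 1.34, since dim genes drop out. Leaving out 1 array gave 0 to 1 falling *ilys* genes (*ilys-1* at -0.24 without embryo replicate A) and 3 to 4 falling *spp* genes. With 12 of the 34 genes at the floor in both stages, as were 5797 of all 17118 genes, signal over background limits what can be said of genes at that level.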
